A study of Mus musculus with 18 samples.

Results

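The genes described here are the globin genes and the late erythroid genes that accompany them in progenitors of mice with and without a *Trim33* deletion. They are 9 of the 19919 genes in the 3 expression tables, namely *Hba-a1*, *Hba-a2*, *Hbb-bs*, *Hbb-bt*, *Ahsp*, *Alas2*, *Slc4a1*, *Car1* and *Aqp1*, taken by their symbols. They were selected on the FPKM values of the KO against the WT libraries in these tables, so the differences between genotypes are given for them as a description, with no p-value, and nothing is read from the counts of members called. RNA-seq was performed on MPPs (multipotent progenitors), CD115- CDPs (common dendritic cell progenitors without surface CD115) and CLPs (common lymphoid progenitors) sorted from the bone marrow of C57BL/6 mice aged 6 to 8 weeks, with 3 biological repeats for each genotype in each population and 18 libraries in all. WT mice were *Trim33* fl/fl, and KO mice were *Trim33* fl/fl Cre-ERT2, in which a ubiquitously expressed, tamoxifen-activated Cre removes exons 2 to 4 of *Trim33*. According to the methods, tamoxifen was injected at 2 mg on 5 days and the mice were kept for 7 more days. A supplementary legend of the paper on progenitor RNA-seq describes mice of both genotypes as treated with tamoxifen. The gates were Lin- Sca-1+ CD117+ CD34+ FLT3+ for MPPs, Lin- CD11c- FLT3+ CD117int CD115- CD127- for CD115- CDPs, and Lin- CD11c- Sca-1+ CD117+ CD127+ FLT3+ for CLPs, and the lineage antibodies included one against TER119, a marker of maturing red cells.

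Haemoglobin is a tetramer of alpha-like and beta-like globin chains, each holding a haem group. In adult mice the alpha chains are made from *Hba-a1* and *Hba-a2* and, in the C57BL/6 strain, the beta chains from *Hbb-bs* and *Hbb-bt*, all of which are transcribed to very high levels during terminal red cell maturation under the control of factors such as GATA1 and KLF1. *Ahsp* encodes a chaperone of free alpha globin, *Alas2* the erythroid enzyme that begins haem synthesis, *Slc4a1* the anion exchanger band 3, *Car1* a carbonic anhydrase and *Aqp1* a water channel of the red cell membrane.

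The DNA just upstream of these genes is shown so that *Hbb-bs* and *Hbb-bt*, neighbours whose values parted, can be compared. On GRCm38.p6, the build of the RefSeq tables used here, *Hba-a1* (chr11:32283672-32284486) and *Hba-a2* (chr11:32296492-32297310) form 1 cluster, and *Hbb-bt* (chr7:103812524-103813923) and *Hbb-bs* (chr7:103826523-103827928) another. RefSeq windows of the 250 bases before the start were matched for 6 of the 9 members. *Ahsp*, *Slc4a1* and *Car1* are named only. The windows printed are chr11:32283422-32283671 (plus strand) for *Hba-a1*, chr7:103827929-103828178 and chr7:103813924-103814173 (both minus strand) for *Hbb-bs* and *Hbb-bt*, and chrX:150547167-150547416 (plus strand) for *Alas2*. Capitals mark 4 short motifs searched on either strand, which are GATAA (read by erythroid zinc finger factors), then CACCC (the Krüppel-like factor box), then the CCAAT box, and lastly ATATAA for the core promoter.
Hba-a1: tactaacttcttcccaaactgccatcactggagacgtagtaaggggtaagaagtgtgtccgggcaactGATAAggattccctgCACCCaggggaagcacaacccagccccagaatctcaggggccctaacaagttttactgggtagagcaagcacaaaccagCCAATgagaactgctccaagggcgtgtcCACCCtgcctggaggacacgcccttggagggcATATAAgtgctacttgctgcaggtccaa
Hbb-bs: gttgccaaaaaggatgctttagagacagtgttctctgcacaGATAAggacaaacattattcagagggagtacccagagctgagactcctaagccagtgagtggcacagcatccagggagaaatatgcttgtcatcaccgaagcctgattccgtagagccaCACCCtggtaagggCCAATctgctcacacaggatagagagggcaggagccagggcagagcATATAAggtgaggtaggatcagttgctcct
Hbb-bt: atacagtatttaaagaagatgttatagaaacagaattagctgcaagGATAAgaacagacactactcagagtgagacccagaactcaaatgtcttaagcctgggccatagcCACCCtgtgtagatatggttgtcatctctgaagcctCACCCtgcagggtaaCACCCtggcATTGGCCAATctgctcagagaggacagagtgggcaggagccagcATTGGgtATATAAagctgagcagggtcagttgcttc
Alas2: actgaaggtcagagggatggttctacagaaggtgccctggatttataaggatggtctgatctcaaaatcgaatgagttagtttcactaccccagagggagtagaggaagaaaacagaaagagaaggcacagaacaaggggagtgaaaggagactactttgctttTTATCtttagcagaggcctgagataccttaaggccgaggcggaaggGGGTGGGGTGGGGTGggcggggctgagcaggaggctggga

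GATAA was found in 5 of the 6 windows, all but that of *Aqp1*, against 22.6% of 32851 RefSeq windows of the same length. CACCC was in all 6 windows, against 52.0% of all windows. CCAAT was in the 4 globin windows (33.8% of all windows), and ATATAA was also in those 4 (9.1% of all windows). The *Hba-a1* and *Hba-a2* windows shared an exact run of 247 bases. The *Hbb-bs* and *Hbb-bt* windows were identical at 185 of 261 aligned positions (70.9%), and *Hbb-bt* held 3 CACCC and 3 CCAAT matches where *Hbb-bs* held 1 of each, with adjoining but no overlapping matches. These matches describe the letters in the windows and were not tested as binding sites.

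Levels are in FPKM (fragment counts scaled to transcript length and to the mapped reads of the library), as deposited. From the spacing of low FPKM values the libraries were estimated to hold 19.3 to 21.3 M mapped reads, so that 1 read was worth about 0.075 FPKM for *Hba-a1* and *Hbb-bt*, 0.097 for *Hba-a2* and 0.085 for *Hbb-bs*. *Trim33* itself measured 10.42, 10.12 and 8.78 FPKM in WT MPPs and 9.71, 11.66 and 4.8 FPKM in KO MPPs. Gene-level FPKM of *Trim33* overlapped between the genotypes in all 3 populations, although its mean was lower in the KO-labelled libraries of each. Since only 3 exons are removed, this level does not check the labels, so the groups are called KO-labelled. The libraries numbered 3 of the CD115- CDPs, 1 WT and 1 KO-labelled, stood apart, with summed neutrophil marker levels of up to 4624 FPKM (WT) and 4507 FPKM (KO-labelled) against lowest sums of 700.3 and 829.4 FPKM.

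The largest part of the globin signal was in WT MPPs, where *Hba-a1* measured 161.50, 152.20 and 139.04 FPKM. In the 3 KO-labelled MPP libraries it measured 0.36, 0.29 and 4.06 FPKM. No KO-labelled library reached the lowest WT one, and the means were 151 ± 11.3 and 1.57 ± 2.16 FPKM (SD, n = 3), a log2 difference of -6.19 on the log2(FPKM + 1) scale used for every difference below. *Hba-a2* measured 43.76, 37.97 and 49.29 FPKM in WT and 0, 0.27 and 0.74 FPKM in the KO-labelled MPPs (-5.09). Its groups were also apart. Reads cannot always tell this pair of genes apart, since 439 of the 505 50-base stretches of the *Hba-a2* transcript (86.9%) also occur in *Hba-a1*, and the division between them is therefore uncertain. Summed, the alpha globins ranged from 188.3 to 205.3 FPKM in WT and from 0.36 to 4.8 FPKM in the KO-labelled MPPs.

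The beta globins parted in MPPs. *Hbb-bs* measured 101.61, 111.23 and 93.24 FPKM in WT and 0, 0 and 2.34 FPKM in the KO-labelled MPPs, a log2 difference of -6.10. *Hbb-bt* measured 63.08, 42.89 and 60.10 FPKM in WT and 31.43, 46.42 and 49.05 FPKM in the KO-labelled MPPs. For *Hbb-bt* the groups overlapped, with means of 55.4 ± 10.9 and 42.3 ± 9.51 FPKM (SD, n = 3) and a log2 difference of -0.39. *Hbb-bt* made up 27.8% to 39.2% of the summed beta globin FPKM in WT MPPs and 95.5% to 100% in KO-labelled MPPs. Of the 654 50-base stretches of the *Hbb-bt* transcript, 381 (58.3%) also occur in *Hbb-bs* and 273 do not, so the division of reads between these genes is uncertain as well. With both summed, the log2 difference in MPPs was -1.87.

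**Figure D1:**
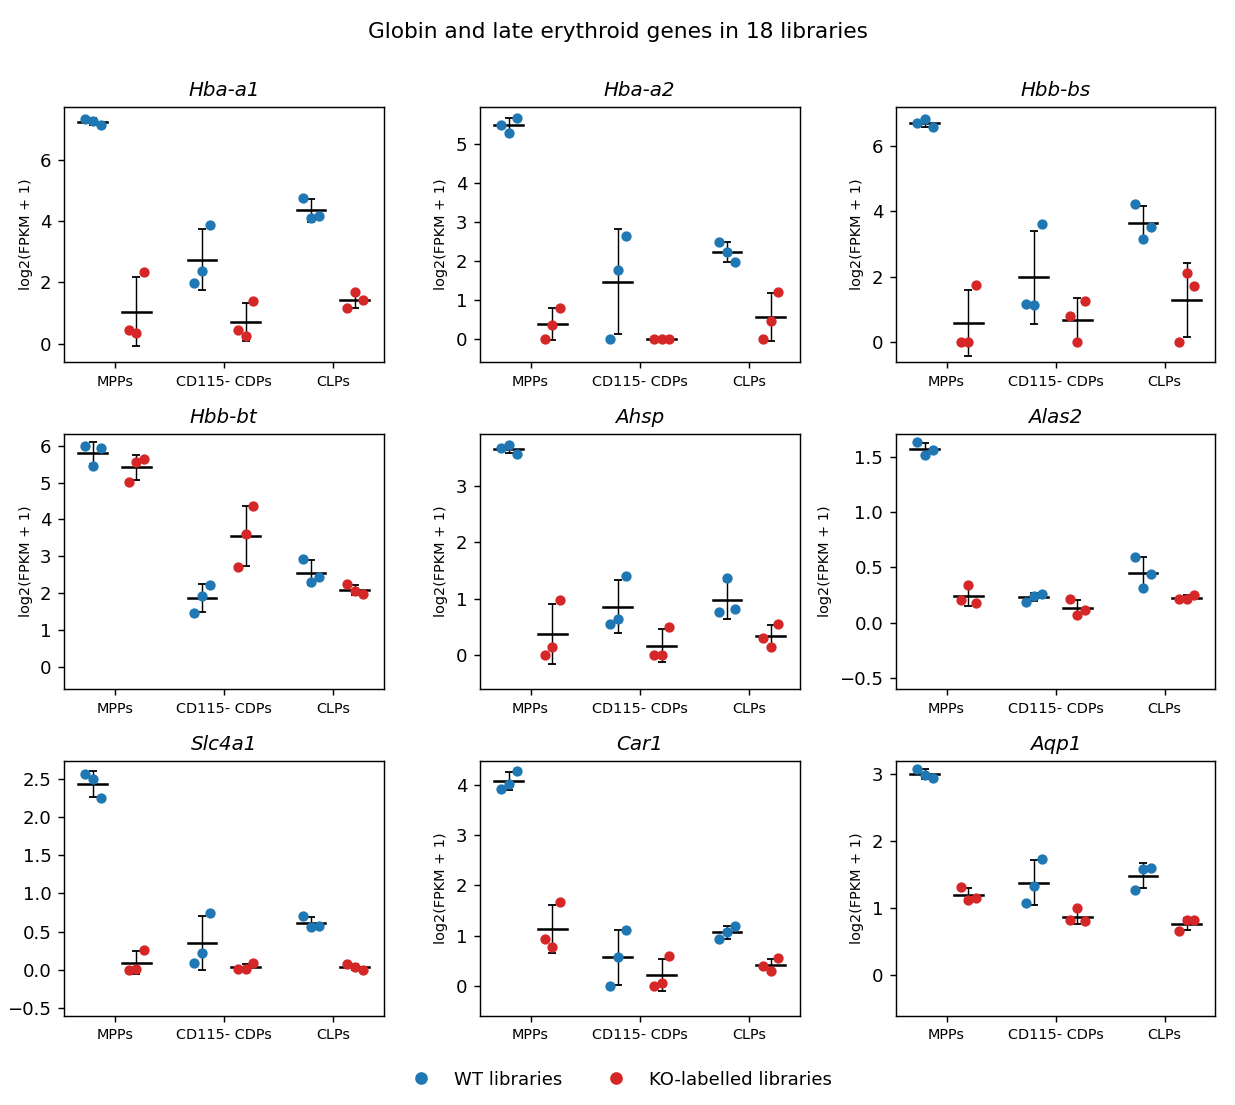
Level of each member, as log2(FPKM + 1), in the 18 libraries (points, WT blue and KO-labelled red), with the mean of each group of 3 (line) and its SD (bar), each panel with its own axis. WT MPPs are highest for all 9 members, and *Hbb-bt* alone among them has overlapping WT and KO-labelled MPP groups.

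The remaining 5 members were lower in every KO-labelled MPP library than in any WT one. *Ahsp* measured 11.80, 12.17 and 10.87 FPKM in WT MPPs and 0, 0.11 and 0.97 FPKM in the KO-labelled MPPs (log2 difference -3.28). *Slc4a1* measured 4.94, 4.64 and 3.74 FPKM against 0, 0.01 and 0.20 FPKM (-2.34). Both are genes of late red cell maturation, and both were at or near 0 in KO-labelled libraries 1 and 2. *Car1* measured 14.26, 15.29 and 18.35 FPKM against 0.91, 0.70 and 2.17 FPKM (-2.96). *Alas2* measured 2.10, 1.86 and 1.96 FPKM against 0.15, 0.27 and 0.13 FPKM (-1.33). *Aqp1*, which endothelial cells also express, kept the most of its WT mean among these 5, 18.5%, at 7.50, 6.94 and 6.71 FPKM against 1.49, 1.19 and 1.23 FPKM (-1.81). KO-labelled library 3, which had the lowest *Trim33*, was the highest of the 3 KO-labelled MPP libraries for 7 of the 9 members, all but *Alas2* and *Aqp1*.

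The size of these differences depends on the pseudocount. With 0.1 in place of 1 they were -8.46 for *Hbb-bs*, -4.92 for *Slc4a1* and -2.90 for *Alas2* in MPPs.

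In MPPs, 8 of the 9 members were called lower by limma (adjusted p of at most 0.05 and a log2 difference of at least 1), where 1.32% of the 12372 genes tested were. The groups of the same 8 members did not overlap, as for 23.3% of all genes in that direction. Since the members were chosen for this difference, nothing is read from either count. The median log2 difference was -2.96 over the 9 members and -0.11 over all genes tested. In sorted populations such as these, fewer cells of a type and less RNA per cell cannot be told apart.

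In CLPs the members were lower in level than in WT MPPs, and the same direction was seen. *Hba-a1* measured 26.14, 16.32 and 16.98 FPKM in WT and 1.26, 2.19 and 1.69 FPKM in the KO-labelled CLPs (log2 difference -2.92). *Hbb-bs* measured 17.56, 7.97 and 10.49 FPKM in WT and 0, 3.38 and 2.32 FPKM in the KO-labelled CLPs (-2.35). For both genes WT library 1 was the highest, and the groups were apart. *Hba-a2* measured 4.6, 3.66 and 2.91 FPKM against 0, 0.38 and 1.31 FPKM (-1.67). *Hbb-bt* measured 6.63, 3.97 and 4.40 FPKM against 3.73, 3.17 and 2.95 FPKM (-0.46), a smaller difference with groups that did not overlap. The other 5 members had WT means between 0.37 and 1.83 FPKM and KO-labelled means between 0.0267 and 0.71 FPKM. *Slc4a1*, for example, measured 0.63, 0.48 and 0.49 FPKM in WT and 0.05, 0.03 and 0 FPKM in the KO-labelled CLPs. All 9 members had groups that did not overlap in CLPs, against 18.6% of genes in that direction, and 3 (*Hba-a1*, *Hba-a2* and *Hbb-bs*) were called lower, against 2.84% of the 12339 genes tested (3 also with the replicate block, against 3.11%), counts that the choice of members again leaves without weight. No member was higher, where 0.673% of genes were called higher and 15.3% had KO-labelled libraries all above WT. *Alas2* and *Slc4a1* were below the filter of a mean of 0.5 FPKM there and were not fitted.

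The CD115- CDPs had the lowest WT globin levels, and 1 library held much of the signal. *Hba-a1* measured 2.96, 4.15 and 13.72 FPKM in WT and 0.37, 0.18 and 1.64 FPKM in the KO-labelled CD115- CDPs (log2 difference -2.05). *Hbb-bs* measured 1.27, 1.22 and 11.25 FPKM in WT and 0.76, 0 and 1.42 FPKM in the KO-labelled CD115- CDPs (-1.29). The groups of *Hba-a1* were apart and those of *Hbb-bs* overlapped. *Hba-a2* measured 0, 2.4 and 5.23 FPKM in WT and was at a listed value of 0 in each KO-labelled library. WT library 3, one of the pair that stood apart, was the highest WT library for all 9 members, and KO-labelled library 3 was the highest KO-labelled one for 6. Without WT library 3 the log2 difference of *Hbb-bs* was -0.47, and without both libraries numbered 3 it was -0.76. *Hbb-bt* went the other way, at 1.76, 2.82 and 3.63 FPKM in WT and 5.52, 11.09 and 19.46 FPKM in the KO-labelled CD115- CDPs. No WT library reached the lowest KO-labelled one, with means of 2.74 ± 0.938 and 12.02 ± 7.02 FPKM (SD, n = 3) and a log2 difference of 1.68. Without both libraries numbered 3 the log2 difference was 1.45 for *Hbb-bt* and -1.83 for *Hba-a1*. With *Hbb-bs* and *Hbb-bt* summed, the log2 difference was 0.86. *Hbb-bt* made up 58.1%, 69.8% and 24.4% of the summed beta globin FPKM in the WT CD115- CDP libraries. In the KO-labelled ones it made up 87.9%, 100% and 93.2%. It was thus the larger beta globin in WT libraries 1 and 2 as well.

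The other members in CD115- CDPs had WT means of at most 1.66 FPKM. *Ahsp* measured 0.46, 0.56 and 1.63 FPKM in WT and 0, 0 and 0.42 FPKM in the KO-labelled libraries, and *Aqp1* 1.12, 1.52 and 2.34 FPKM against 0.77, 1.01 and 0.75 FPKM. These groups were apart, while those of *Alas2*, *Slc4a1* and *Car1*, all below the filter, overlapped. Without the replicate number as a block, none of the 6 members fitted was called in CD115- CDPs, where 0.0654% of the 12229 genes tested were called lower and 0.0409% higher. With the block, *Hba-a1* was called lower and *Hbb-bt* higher, against 1.46% and 0.376% of genes, and nothing is read from these calls. The groups of 3 members were apart with KO-labelled libraries lower (10.6% of genes) and those of 1 member, *Hbb-bt*, with them higher (7.68% of genes).

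**Figure D2:**
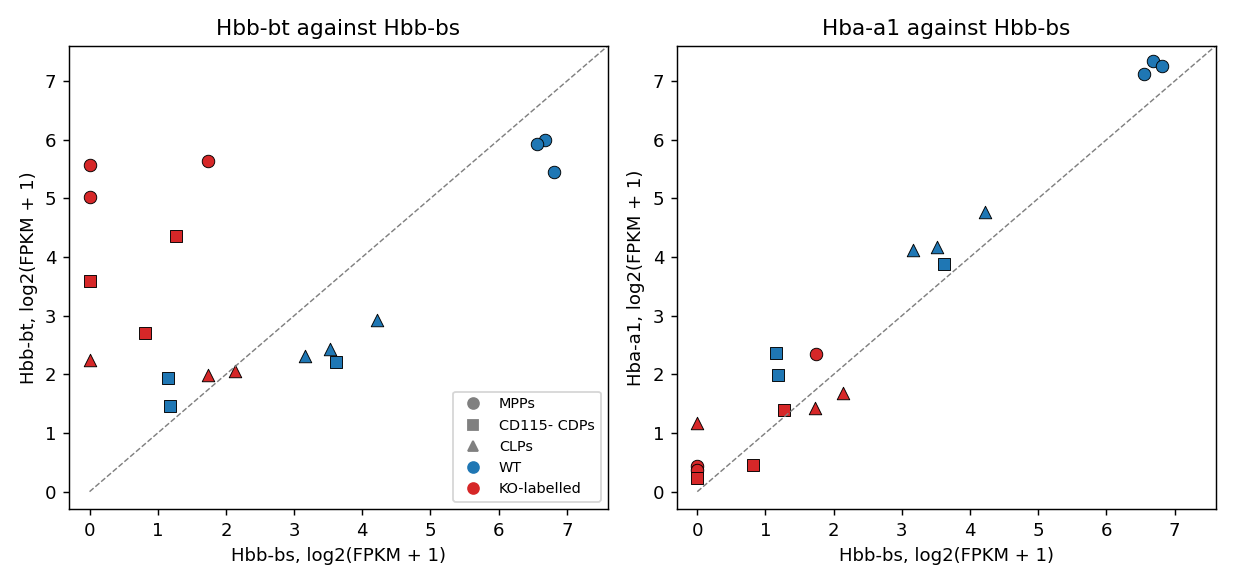
*Hbb-bt* (left) and *Hba-a1* (right) against *Hbb-bs*, as log2(FPKM + 1), in the 18 libraries, with circles for MPPs, squares for CD115- CDPs and triangles for CLPs, WT blue and KO-labelled red, and a dashed line where both are equal. In KO-labelled MPPs and CD115- CDPs *Hbb-bt* lies well above the line and *Hba-a1* lies closer to it. KO-labelled CLP library 1, where *Hbb-bt* made up 100% of the summed beta globin FPKM, also lies above the line for *Hbb-bt*. WT CD115- CDP libraries 1 and 2 (58.1% and 69.8%) and KO-labelled CLP library 3 (56.0%) lie above it too, by less.

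Across the 6 groups, WT MPPs had the highest mean of every member, and for 8 of them all WT MPP libraries lay above every other group. For *Hba-a1* the order continued with WT CLPs at 19.8 ± 5.49 FPKM and WT CD115- CDPs at 6.94 ± 5.90 FPKM (SD, n = 3), each below the group before it without overlap, and the 3 KO-labelled groups followed. KO-labelled CLPs (1.71 ± 0.465 FPKM), MPPs (1.57 ± 2.16 FPKM) and CD115- CDPs (0.73 ± 0.794 FPKM) overlapped from each to the next. For *Hbb-bt* the order was different, with KO-labelled MPPs second and KO-labelled CD115- CDPs (12.02 FPKM) next. WT CLPs (5.0 ± 1.43 FPKM) overlapped the latter, and WT CD115- CDPs came last. *Hbb-bt* made up 9.11% to 22.6% of the summed FPKM of the 9 members in WT libraries of the 3 populations. In KO-labelled libraries it made up 80.6% to 94.2% in MPPs, 72.7% to 89.6% in CD115- CDPs and 29.1% to 58.8% in CLPs. The 9 members together were at most 0.0797% of the summed FPKM of any library.

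Other globins were scarcely measured. *Hbq1a* and *Hbb-b1* were listed at 0 in every MPP and CD115- CDP library. *Hbq1b*, a theta globin, measured 0.47, 0.21 and 0.07 FPKM in WT MPPs and was listed at 0 in KO-labelled MPPs, and *Hbb-b2* measured 0.11 FPKM in 1 WT MPP library.

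Among the 11 erythroid transcription factors, 3 fell in KO-labelled MPPs and none rose, where 1.32% of all genes were called lower and 0.162% higher. *Klf1*, the activator of adult beta globin, measured 3.67, 3.46 and 3.90 FPKM in WT and 0.13, 0.20 and 0.43 FPKM in the KO-labelled MPPs (log2 difference -1.91, limma adjusted p = 0.00182). *Gata1*, the central erythroid factor, measured 2.07, 2.44 and 2.43 FPKM against 0.31, 0.30 and 0.56 FPKM (-1.26, limma adjusted p = 0.00617). *Tal1*, its partner in erythroid complexes, measured 16.25, 16.20 and 16.95 FPKM against 6.18, 4.51 and 9.06 FPKM (-1.25, limma adjusted p = 0.035). The other 8 factors were not called. Leaving out any 1 MPP library except KO-labelled library 3 ended the call of *Tal1*, with adjusted p from 0.0654 to 0.174, and leaving out WT library 2 or 3 ended that of *Gata1*, at 0.0528 and 0.0544. In CD115- CDPs and CLPs *Gata1* and *Klf1* were below the filter, with group means of 0.12 to 0.517 FPKM, and none of the 9 factors that passed was called by limma in either population (2 and 6 at an unadjusted p under 0.05, of which 1 and 4 were higher in KO-labelled libraries). In CLPs 2 of these 9 passed the adjusted p but not the fold threshold, and they were higher in KO-labelled libraries. The median log2 difference of the 9 factors in CLPs was 0.37.

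Of the erythroid membrane and skeleton genes, 4 of the 11 that passed the filter fell in MPPs and none rose, against 1.32% and 0.162% of all genes. *Rhd*, of the Rh blood group complex, measured 3.39, 2.75 and 2.88 FPKM in WT MPPs against 0.10, 0 and 0.33 FPKM in the KO-labelled ones (-1.82). *Tspan33* (-1.16) and *Ermap* (-1.07), an erythroid membrane protein, also fell. Leaving out any 1 WT MPP library ended the calls of the last pair, and leaving out KO-labelled library 1 or 2 that of *Ermap*. In CD115- CDPs none of 6 was called by limma (1 at an unadjusted p under 0.05), but with the replicate block *Tspan33* fell, at 3.10, 3.15 and 6.92 FPKM in WT and 0.80, 0.96 and 1.08 FPKM in the KO-labelled libraries (-1.40, limma adjusted p = 0.0195 with the block and 0.248 without).

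Haem synthesis and transport genes other than *Alas2* were not called. None of the 11 passed in MPPs, CD115- CDPs or CLPs by limma, with 6, 0 and 1 of them at an unadjusted p under 0.05, and their median log2 differences were -0.36, -0.06 and -0.12. Of 8 genes of erythropoietin response and iron uptake, none was called in MPPs (5 at an unadjusted p under 0.05). *Epor*, the erythropoietin receptor, passed the adjusted p but not the fold threshold, at 1.24, 1.17 and 1.44 FPKM in WT and 0.13, 0.23 and 0.11 FPKM in the KO-labelled MPPs (-0.98, limma adjusted p = 0.00775). *Tfrc*, the transferrin receptor through which all dividing cells take up iron, measured 20.29, 21.18 and 19.66 FPKM against 32.00, 33.13 and 24.82 FPKM (0.53, limma adjusted p = 0.0825). Its 3 KO-labelled MPP libraries lay above the WT ones, as for 6.98% of all genes. In CD115- CDPs and CLPs its KO-labelled libraries lay below (-0.49 and -0.52), as for 10.6% and 18.6% of all genes. None of these differences was called. In CD115- CDPs and CLPs the limma adjusted p was 0.0299 and 0.0202 with the replicate block, and 0.465 and 0.103 without.

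Of the other red cell genes, *Tspo2* (-1.09) and *Blvrb*, a biliverdin reductase (-1.0), fell in MPPs. *Blvrb* was at the threshold in MPPs and was no longer called after median ratio scaling (-0.89) or without any 1 MPP library except KO-labelled library 3 (adjusted p from 0.057 to 0.153). The call of *Tspo2* ended without WT library 3 or KO-labelled library 1 or 2 (0.113, 0.0666 and 0.0631), and without WT library 1 the gene fell below the filter. In CLPs *Blvrb* measured 22.39, 26.70 and 24.01 FPKM in WT and 5.69, 7.18 and 7.84 FPKM in the KO-labelled libraries (-1.69), and it was the only gene of these lists called there. Over all the lists together, 9 of the 52 genes that passed the filter in MPPs were called lower and 0 higher (1 higher at an unadjusted p under 0.05), where 1.32% of all genes were called lower and 0.162% higher, with a median log2 difference of -0.58 against -0.11 over all genes. In CD115- CDPs none of 42 was called by limma (7 at an unadjusted p under 0.05), where 0.0654% of all genes were called lower, and the median was 0.06. With the replicate block 1 of the 42, *Tspan33*, was called lower there, against 1.46% of all genes. In CLPs 1 of 42 was called lower, against 2.84% of all genes, and the median was -0.02.

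**Figure D3:**
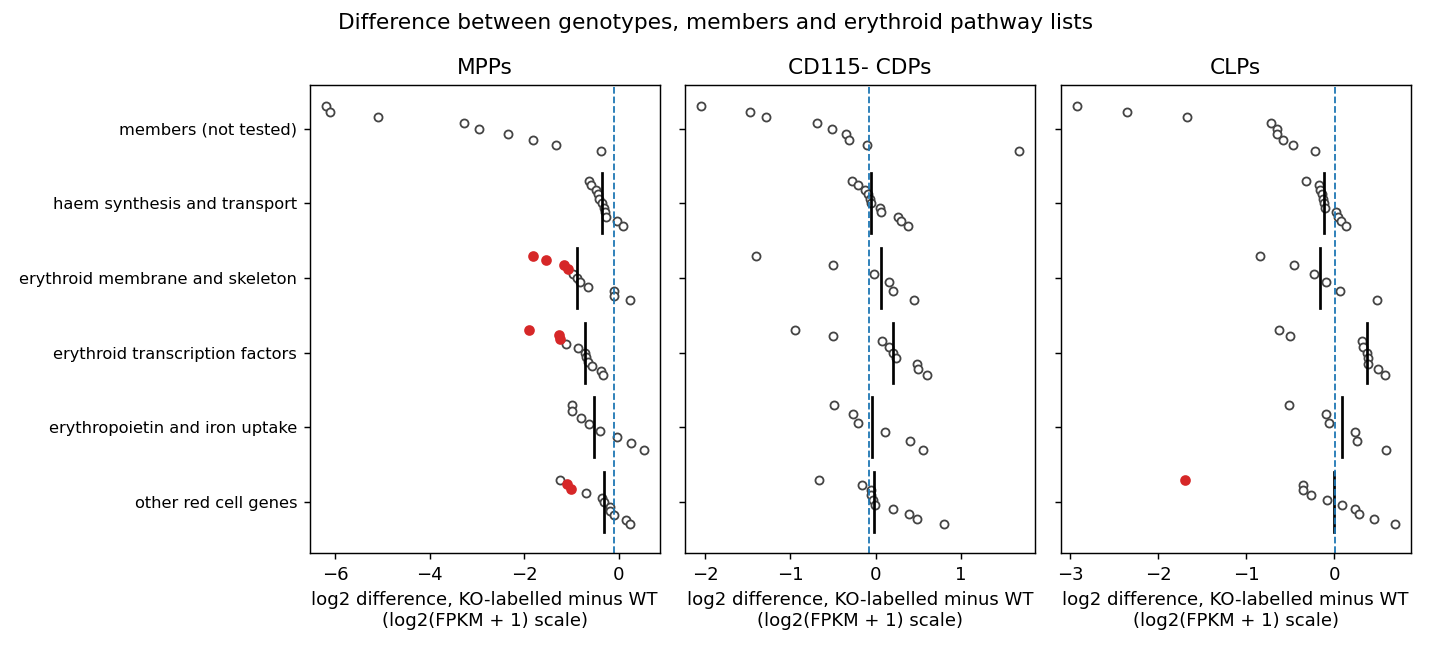
Log2 difference, KO-labelled minus WT, on the log2(FPKM + 1) scale, for the 9 members (no test) and the genes of 5 erythroid lists that passed the filter, one point a gene, red where called by limma, with the median of each list as a black line and that of all genes as a dashed line. Called points lie in MPPs, with *Blvrb* alone in CLPs, and the axis of each panel differs.

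Whether the difference between genotypes itself differed between the populations was tested with a limma F test of the interaction over 18 libraries, which 2.45% of the 12421 genes passed at an adjusted p of at most 0.05. For *Klf1*, *Rhd*, *Gata1* and *Ermap* it is not given, since they were below the filter in at least 1 other population and could not have fallen there as far as in MPPs. *Tal1* (0.192), *Tfrc* (0.0608) and *Blvrb* (0.0962) did not pass without the replicate block and did with it (0.00447, 0.0042 and 0.0278). *Epor* was too low on average over the 18 libraries to enter this test.

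**Figure D4:**
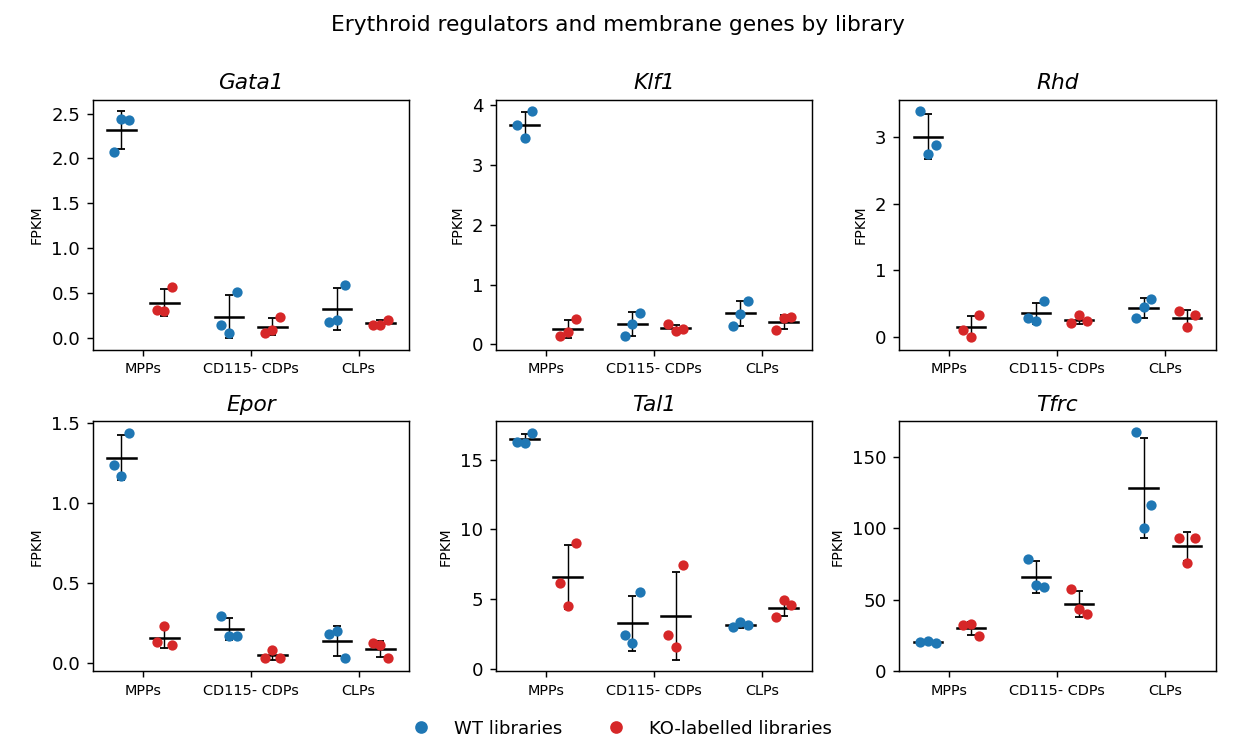
FPKM of *Gata1*, *Klf1*, *Rhd*, *Epor*, *Tal1* and *Tfrc* in each library (points, WT blue and KO-labelled red), with the mean of each group of 3 (line) and its SD (bar), each panel with its own axis. In MPPs the KO-labelled libraries lie below the WT ones for all but *Tfrc*.

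Markers of other cell types moved in the same MPP libraries. Megakaryocyte and platelet markers summed to 52.5 to 55.1 FPKM in WT and 17.2 to 21.5 FPKM in the KO-labelled MPPs, with 2 of 6 called lower, among them *Itga2b*. Macrophage markers summed to 33.3 to 38.1 FPKM against 15.4 to 19.7 FPKM, with 4 of 8 called lower, among them *C1qa*, at 1.8 to 2.2 FPKM in WT and 0 to 0.14 FPKM in the KO-labelled MPPs. Neutrophil markers summed to 3660 to 3791 FPKM against 1613 to 2684 FPKM, with 4 of 10 called lower. Not all of them fell, since the groups of *Elane* (-0.03), *Prtn3* (-0.16) and *Ctsg* (-0.40) overlapped. The KO-labelled groups of the other 7 lay below WT, as for 23.3% of all genes. B lineage markers summed to 50.7 to 56.7 FPKM against 16.2 to 34.0 FPKM, with 1 of 8 called lower. In MPPs 1.32% of all genes were called lower. In CLPs megakaryocyte markers summed to 12 to 14.7 FPKM in WT and 4.75 to 5.46 FPKM in KO-labelled libraries, and macrophage markers to 41.1 to 57.5 FPKM against 16 to 19.2 FPKM, with 1 of 4 and 1 of 3 called lower (2.84% of all genes). Neutrophil markers in CLPs summed to 432.6 to 1059 FPKM against 244.2 to 426.1 FPKM, with 7 of 10 called lower with the replicate block (3.11% of all genes) and 0 without it by limma (8 at an unadjusted p under 0.05). B lineage markers in CLPs summed to 286.8 to 794.3 FPKM against 271.4 to 568.4 FPKM. Of these 8 markers 5 had a lower KO-labelled mean, yet 0 were called lower and 1 was called higher (0.673% of all genes). In CD115- CDPs the sums overlapped between genotypes for megakaryocyte, macrophage, neutrophil and B lineage markers. Yet all 10 macrophage markers had a lower KO-labelled mean in CD115- CDPs. The same held for 6 of 10 megakaryocyte, 3 of 10 neutrophil and 0 of 8 B lineage markers. With the replicate block 1 of the 5 macrophage markers that passed the filter there was called lower, against 1.46% of all genes, and 0 without it. The part of these cell types in the globin differences was not tested.

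Genes outside the members were ranked by Pearson's r with the mean of *Hba-a1*, *Hba-a2*, *Hbb-bs* and *Hbb-bt* over 18 libraries. Values were centred on each population. Genotype was left in, so r includes the difference between WT and KO-labelled libraries. Among 12421 genes the closest were *Fstl1* (0.955), *Zbtb4* (0.94), *Obsl1* (0.937), *Ermap* (0.932), *Rftn2* (0.925), *Letm2* (0.922), *Tmem38a* (0.922) and *Gata1* (0.919). Of the members, *Hbb-bs* had an r of 0.988 with the mean it forms part of, and *Hbb-bt* 0.222.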

How the data were processed

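The authors filtered reads with SOAPnuke, aligned them with HISAT2 (2.0.4) and Bowtie2 (2.2.5) and quantified genes with RSEM (1.2.12) on mm10, and deposited FPKM per gene in 1 table for each population. The labels name mm10 and these tools, and the strand setting is not given in the sources used here. Libraries were poly-A selected and read as 50-base single ends. Values were tested in each population with limma (3.58.1, R 4.3.3) on log2(FPKM + 1), two-sided, keeping genes whose 6 libraries averaged 0.5 FPKM or more, with Benjamini-Hochberg adjustment over all genes tested. Genes were called at an adjusted p of at most 0.05 and a log2 difference of at least 1 either way. The fit was tested on simulated data. A difference on this scale understates the change of low genes. Read totals were estimated from the spacing of FPKM values of genes with 1 transcript of 300 to 1500 bases. Transcripts came from GENCODE vM21 and upstream windows from RefSeq. Same-numbered WT and KO-labelled libraries deviated together in CD115- CDPs (r of 0.437, 0.671 and 0.79) and CLPs (0.4, 0.329 and 0.131). This pairing was read from the data. Calls given without mention of the block come from a fit that ignores the pairing. The block was an alternative, and in CD115- CDPs it gave 224 calls in place of 13. Alternatives were a pseudocount of 0.1, no filter, median ratio scaling, a replicate block, leaving out libraries and summing paralogs. The pathway genes named are those called in a population and *Gata1*, *Klf1*, *Epor* and *Tfrc*, and some genes that the rule takes are not reported here. The members and lists were chosen with earlier results of these data known. The likeness to *Hbb-bt* and the fit without both CD115- CDP libraries numbered 3 were added after seeing the data. Interaction results are given for genes that passed the filter in each population.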

Additional observations from a re-analysis of the deposited data

Results flagged for a closer look

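The difference between KO-labelled and WT libraries was not the same in the 3 populations for *Zfpm1*, a cofactor of GATA1 singled out after its values were seen (limma F test of the interaction, adjusted p = 0.0188). Its log2 differences were -0.66 (MPPs), 0.61 (CD115- CDPs) and 0.32 (CLPs), with 1 of these, that in MPPs, past an adjusted p of 0.05 within its population. In MPPs the limma adjusted p was 0.0306 without the replicate block and 0.0513 with it. For the interaction F test it was 0.0182 with the block.

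*Hbb-bt* moved in opposite directions, with every KO-labelled CD115- CDP library above the WT ones (log2 difference 1.68) and every KO-labelled CLP library below (-0.46). These patterns held for 7.68% and 18.6% of all genes. The CLP groups lay close, with a lowest WT value of 3.97 FPKM and a highest KO-labelled one of 3.73 FPKM. There 1 read was worth about 0.075 FPKM. Without WT library 1 the CLP log2 difference was -0.28. The change of direction was not tested, since the gene was chosen with its values known.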

How the results depend on the processing

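The numbers of genes called depended on the libraries. In MPPs 183 genes were called, and 54 to 916 with 1 library left out, the highest without KO-labelled library 3 and the lowest without WT library 3. In CD115- CDPs 13 were called, 0 to 10 with 1 library left out (0 without WT library 1, WT library 2 or KO-labelled library 1), 3 without the filter, 224 with the replicate block and 223 without both libraries numbered 3. In CLPs 434 were called, and 408 to 476 with 1 library left out. The interaction test called 304 genes, 189 with a pseudocount of 0.1, 545 without the filter and 1077 with the replicate block. In MPPs the numbers did not meet the rule for pairing (r of 0.0382 for pair 1), and the block gave 188 calls. The calls of named pathway genes that changed with the block are those given in the report.

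With 1 library left out, *Trim33* in MPPs ranged from -0.45 to 0.12 and *Tal1* in CD115- CDPs from -0.43 to 0.44. In CD115- CDPs the log2 difference of *Trim33* was -0.74 (limma adjusted p = 0.0258 with the replicate block and 0.528 without). Directions turned for *Trim33* in MPPs without KO-labelled library 3 (0.12), for *Tal1* in CD115- CDPs without WT library 1 (-0.04), WT library 2 (-0.16), KO-labelled library 3 (-0.43) or both CD115- CDP libraries numbered 3 (-0.0725), and for *Hbb-bs* in CD115- CDPs when summed with *Hbb-bt* (0.86). With a pseudocount of 0.1, 24 of the 27 member differences moved by more than the spread between replicates, all but those of *Hbb-bt*, and none turned. It ended the call of *Ermap* in MPPs (adjusted p = 0.0623). Median ratio scaling moved the median of all genes in MPPs from -0.11 to -0.00. The cause was not tested. With about 20.4 M reads a library, an *Hbb-bs* value of 0 and one of 0.085 FPKM differ by 1 read, which limits what the low CD115- CDP values can show.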

Other observations

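Genes were ranked in the same way against *Hbb-bt* alone, after its values were seen. The closest over the 18 libraries were *Ppic* (Pearson's r of 0.84), *Cela1* (0.809), *1700102H20Rik* (0.784), *Rpp40* (0.768) and *Elp6* (0.76). Values were centred on each population and genotype was left in, so r includes the difference between WT and KO-labelled libraries. *Ppic*, a cyclophilin, had mean levels of 11.7 FPKM in WT and 9.73 FPKM in the KO-labelled MPPs, and of 2.47 and 5.22 FPKM in CD115- CDPs. *Cela1*, an elastase, had 4.26 and 3.65 FPKM in MPPs and 0.76 and 2.01 FPKM in CD115- CDPs. No test was run on these values.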
